A study of Homo sapiens with 2 samples.

Results

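The 10 genes described here encode abundant heterogeneous nuclear ribonucleoproteins (hnRNPs): HNRNPU, HNRNPM, HNRNPC, PTBP1, HNRNPL, HNRNPH1, HNRNPF, HNRNPK, HNRNPD and SYNCRIP. They were taken by Ensembl gene ID from a table of 57820 IDs, and each of the 10 IDs matched 1 row. The table counts ribosome-protected fragments of 27 to 29 nt in HEK293 cells, an established human embryonic kidney line. RNase I digests the mRNA that ribosomes do not cover, so the remaining fragments mark where ribosomes sat. Both libraries are controls given DMSO vehicle for 12 h under basal conditions, without heat shock. Replicate 1 belongs to batch 1, and batch 2 is replicate 2. Replicate 1 held 865838 counts and replicate 2 held 611266. With 1 library per batch, replicate and batch cannot be told apart, and no label says that the libraries came from independent cultures. The SD over 2 libraries therefore measures the spread between these libraries only. Minocycline-treated cells were not analysed here. IDs other than the 10 could not be paired with symbols, so neither marker genes of the cell line nor other hnRNP genes were read.

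The hnRNPs bind nascent transcripts in the nucleus, package them, and steer splicing, 3′ end formation, export and decay. Most carry RNA recognition motifs or KH domains, and they prefer various kinds of sequence, such as tracts of U, C or G, or CA repeats. They belong to the most abundant nuclear proteins of dividing cells, and several move between nucleus and cytoplasm, where they act on stability and translation of mRNA.

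All 10 genes lay high in the table of 57820 IDs, of which 2241 had counts that summed to 100 or more. Ranked by mean CPM (counts per 1000000 counts of the library), HNRNPU stood at place 148 and HNRNPC, the lowest of the 10, at place 1419. Together they took 0.348% of the counts of replicate 1, with an exact Clopper-Pearson interval at 95% of 0.335 to 0.360. In replicate 2 they took 0.285% (0.271 to 0.298). The mean over the libraries was 0.316% ± 0.0446 (SD, n = 2). All intervals given here cover counting error only. Fragments were amplified and no molecular identifiers are described, so the intervals may be too narrow even for that. CPM holds the length of an mRNA as well as its ribosome occupancy, and coding lengths were not used here. The order of the genes by CPM is therefore an order of fragments collected, not of ribosome density.

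HNRNPU (ENSG00000153187.12), also called SAF-A, is a large nuclear protein that binds both RNA and scaffold-attached DNA and acts in chromatin organisation and splicing. It gave 848.5 counts in replicate 1 and 329.5 in replicate 2, which is 980.0 CPM and 539.0 CPM, a mean of 759.5 ± 311.8 (SD, n = 2). It had the most fragments of the 10 in both libraries, but the libraries stood far apart. HNRNPM (ENSG00000099783.7), a splicing regulator that binds GU-rich RNA, followed with 508 CPM in replicate 1 and 465 CPM in replicate 2, from 440 and 284 counts. Its mean was 486 CPM ± 30.8 (SD, n = 2), and the intervals of the 2 libraries, 462 to 558 and 412 to 522 CPM, overlapped. HNRNPC (ENSG00000092199.13) forms tetramers on U-rich stretches of nascent RNA and keeps cryptic exons, many of them from Alu elements, out of mRNA. It gave 102 CPM in replicate 1 and 113 CPM in replicate 2, from 88 and 69 counts, the fewest of the 10 in both libraries.

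PTBP1 and HNRNPL are related proteins that mostly repress exons, PTBP1 at pyrimidine tracts and HNRNPL at CA repeats. PTBP1 (ENSG00000011304.12) gave 315 CPM in replicate 1 and 285 CPM in replicate 2, from 273 and 174 counts. HNRNPL (ENSG00000104824.12) gave 224 CPM and 204 CPM, from 194 and 124.5 counts. The count of PTBP1 was 1.41 times that of HNRNPL in replicate 1 (95% exact interval 1.17 to 1.70) and 1.40 times in replicate 2 (1.11 to 1.78). The division of fragments between these relatives thus moved by less than counting error.

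HNRNPH1 and HNRNPF are close paralogs that bind runs of G through quasi-RNA recognition motifs and regulate splicing and polyadenylation. HNRNPH1 (ENSG00000169045.13) gave 393 CPM in replicate 1 and 401 CPM in replicate 2, from 340 and 245 counts. HNRNPF (ENSG00000169813.12) gave 165 CPM and 167 CPM, from 143 and 102 counts, a mean of 166 CPM ± 1.21 (SD, n = 2) by library size. Its counting intervals, 139 to 195 CPM in replicate 1 and 136 to 203 CPM in replicate 2, were far wider than this SD. The count of HNRNPH1 was 2.38 times that of HNRNPF in replicate 1 (95% exact interval 1.95 to 2.91) and 2.40 times in replicate 2 (1.90 to 3.06). As for PTBP1 and HNRNPL, the ratio within each library does not allow for length, but its difference between libraries does not depend on length or on scaling.

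HNRNPK, HNRNPD and SYNCRIP act on mRNA in the cytoplasm as well as in the nucleus. HNRNPK (ENSG00000165119.14), which binds C-rich RNA and DNA through KH domains, gave 325 CPM in replicate 1 and 258 CPM in replicate 2, from 281.5 and 158 counts. HNRNPD (ENSG00000138668.14), also called AUF1, binds AU-rich elements and promotes decay of many of the mRNAs that hold them. It gave 333 CPM and 293 CPM, from 288 and 179 counts. SYNCRIP (ENSG00000135316.13), also called hnRNP Q, takes part in mRNA transport and stability, and gave 133 CPM and 124 CPM, from 115 and 75.5 counts. All 3 were higher in replicate 1 by CPM, and for each of them the counting intervals of the 2 libraries overlapped.

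**Figure D1:**
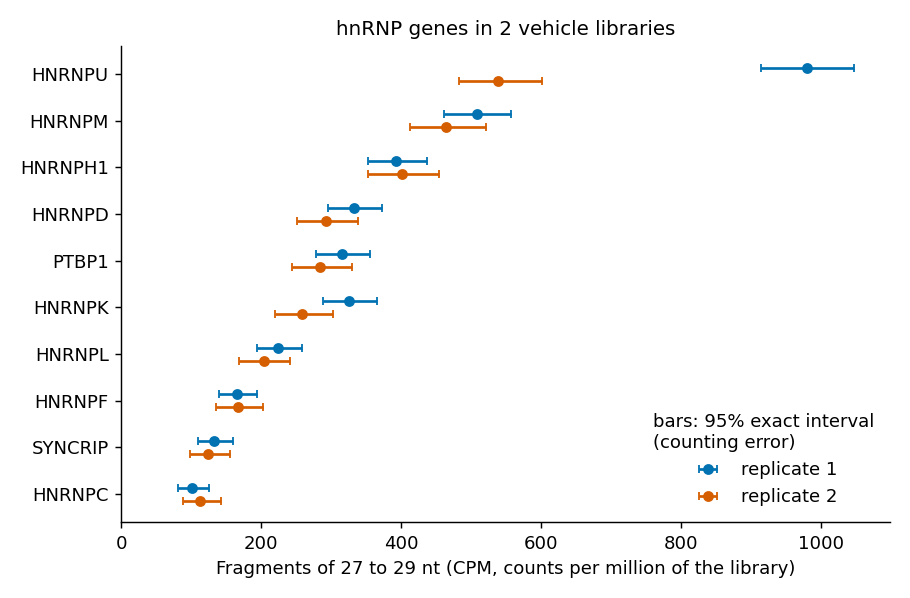
CPM of each hnRNP gene (horizontal axis, linear) in replicate 1 and replicate 2, with genes from the highest to the lowest mean. Bars are 95% exact Clopper-Pearson intervals for counting error. HNRNPU, at 980.0 and 539.0 CPM, is the only one of the 10 whose bars do not overlap.

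By CPM, 8 of the 10 genes held the same place in the order in both libraries. The order was HNRNPU, HNRNPM, HNRNPH1, HNRNPD, PTBP1, HNRNPK, HNRNPL, HNRNPF, SYNCRIP and HNRNPC. PTBP1 and HNRNPK exchanged places 5 and 6 between the libraries. Of the 9 pairs of neighbours in the mean order, 7 had library values that did not overlap. This count does not allow for counting error. HNRNPC gave 0.765 times the counts of SYNCRIP in replicate 1 (95% exact interval 0.573 to 1.02) and 0.914 times in replicate 2 (0.646 to 1.27), so the order of these lowest genes was within counting error in both libraries. The ranges of HNRNPD and PTBP1 overlapped, as did those of PTBP1 and HNRNPK.

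The libraries were then compared for each gene, as the ratio of replicate 2 over replicate 1 after TMM scaling, which sets the libraries to the bulk of IDs rather than to their totals. TMM scaling is the reference here because 2 IDs alone took 17.6% of replicate 1 and 23.2% of replicate 2. None of the 10 genes had a 95% exact binomial interval wholly beyond 2-fold, a rule met by 0.803% of the 2241 IDs whose counts summed to 100 or more. None lay wholly beyond 1.5-fold either, against 4.28% of those IDs. That limit was counted with TMM scaling only. Scaled by library size, HNRNPU had a log2 interval of -1.05 to -0.67, wholly beyond 1.5-fold. The share of all IDs beyond 1.5-fold was not counted under that scaling. With TMM scaling, an interval that excluded a ratio of 1 was found for 1 of the 10 genes, HNRNPU, which was lower in replicate 2. Of the 2241 IDs, 37.9% had such an interval: 22.3% were lower in replicate 2 and 15.6% higher. The share was 41.2% among the 1316 IDs with 157 to 1178 summed counts, the range of the 10 genes. The design holds 1 group, so this describes 2 libraries and tests no condition.

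HNRNPU had a log2 ratio of -0.75 (95% exact interval -0.94 to -0.56), so replicate 1 held 1.68 times the level of replicate 2 (1.48 to 1.92). The gene is singled out after its values were seen. Its ratio was not rare in the table: 72 of the 1316 IDs of like count, or 5.47%, had a ratio as low or lower. Among 156 IDs with a summed count within 1.5-fold of that of HNRNPU, 8 did, or 5.13%. Both sets and both counts include HNRNPU itself. HNRNPU stayed lower in replicate 2 under each of the 5 scalings run, with log2 ratios from -0.86 by library size to -0.75 with DESeq2 size factors. By library size its interval was -1.05 to -0.67. The batch moved with this difference and its part was not tested.

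The other 9 genes had log2 ratios from -0.22 to 0.26, and each interval contained 0. HNRNPC was highest at 0.26 (-0.22 to 0.73), on the fewest counts of the 10. HNRNPH1 followed at 0.14 (-0.10 to 0.38) and HNRNPF at 0.12 (-0.26 to 0.50). SYNCRIP at 0.014 (-0.42 to 0.44), HNRNPM at -0.020 (-0.24 to 0.20), HNRNPL at -0.034 (-0.37 to 0.30) and PTBP1 at -0.038 (-0.32 to 0.24) lay nearest to 0. HNRNPD was at -0.074 (-0.35 to 0.20). HNRNPK was at -0.22 (-0.51 to 0.06), and by library size at -0.33 (-0.62 to -0.05), where its interval no longer contained 0. With TMM factors over all IDs above 0 counts it was at -0.30 (-0.59 to -0.02), again without 0. SYNCRIP changed sign under the same 2 scalings, to -0.095 by library size and to -0.063 with those TMM factors.

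**Figure D2:**
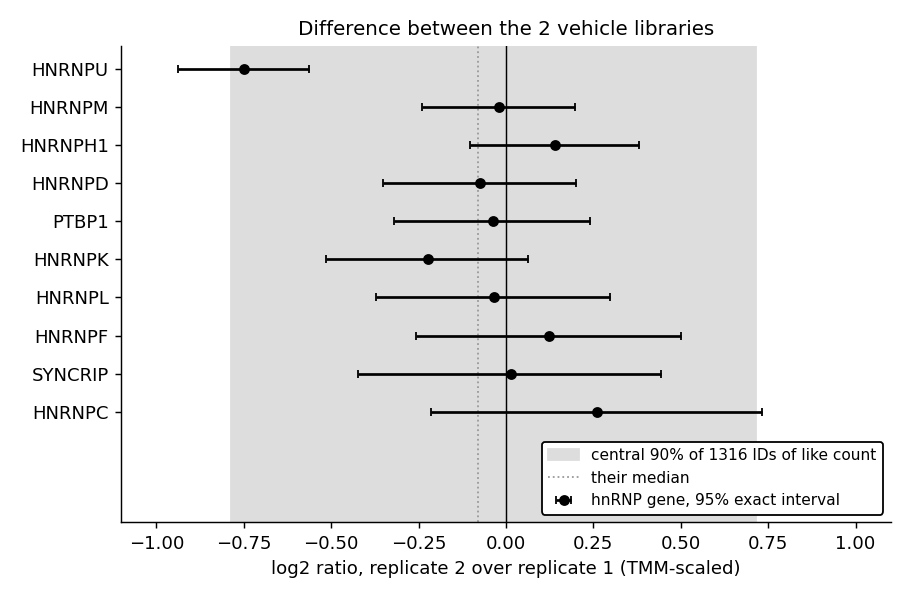
The log2 ratio of replicate 2 over replicate 1 after TMM scaling (horizontal axis) of each hnRNP gene, with its 95% exact binomial interval. The grey band holds the central 90% of the 1316 IDs with 157 to 1178 summed counts (-0.79 to 0.72), and the dotted line is their median (-0.08). HNRNPU, at -0.75, lies near the lower edge of the band, and the other 9 intervals cross 0.

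Over the 10 genes the median log2 ratio was -0.03, beside -0.07 for the 2241 IDs and -0.08 for the 1316 IDs of like count. The median absolute log2 ratio was 0.099 for the 10 genes, beside 0.28 for the IDs of like count. The standard deviation of the log2 ratios was 0.28 over the 10 genes, beside 0.46 for the IDs of like count. The IDs of like count share only the range of summed counts and were not matched to the 10 genes within it. These spreads therefore do not show that the 10 genes were steadier than IDs of equal count. The standard error of a single log2 ratio from counting alone ran from 0.094 for HNRNPU, with the most counts, to 0.23 for HNRNPC, with the fewest.

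**Figure D3:**
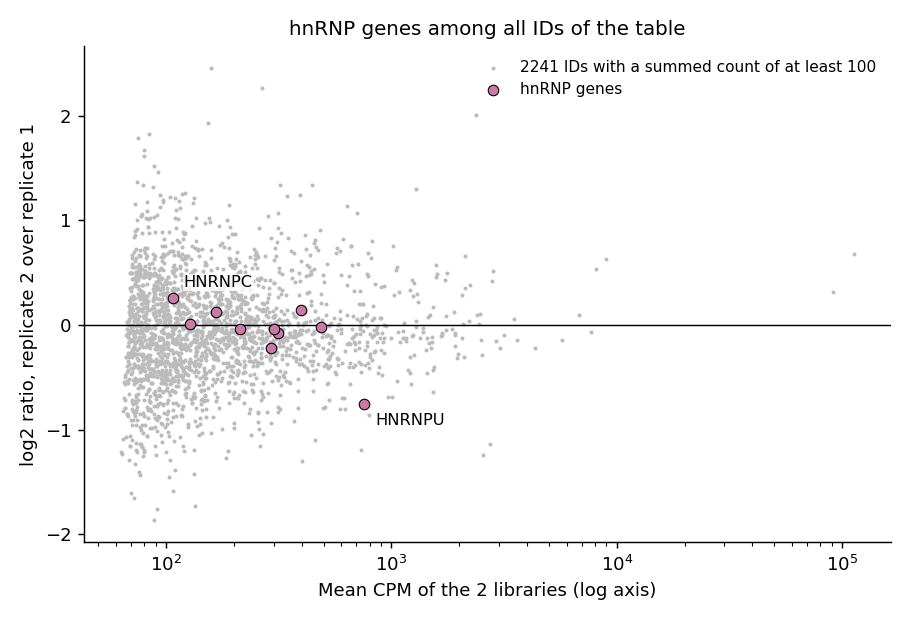
The log2 ratio of replicate 2 over replicate 1 after TMM scaling (vertical axis) against mean CPM (horizontal log axis) for the 2241 IDs that reached 100 summed counts, with the hnRNP genes as large points. HNRNPU, at 759.5 CPM, lies at -0.75, and the other 9 genes lie between -0.22 and 0.26.

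With TMM scaling, the difference in the summed counts of the 10 genes lay on HNRNPU. Their sum had a log2 ratio of -0.18 (95% exact interval -0.27 to -0.09), from 3011 counts in replicate 1 and 1740.5 in replicate 2. With HNRNPU left out, a choice made after its values were seen, the sum was 2162.5 and 1411 counts and its log2 ratio was -0.0038 (-0.10 to 0.09). By library size the sum without HNRNPU had a log2 ratio of -0.11 (-0.21 to -0.02).

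Shares within the set of 10 need no scaling of the libraries. HNRNPU took 28.2% of the set's fragments in replicate 1 (95% Clopper-Pearson interval 26.6 to 29.8) and 18.9% in replicate 2 (17.1 to 20.9). For every 100 counts on the other 9 genes there were 39.2 on HNRNPU in replicate 1 and 23.4 in replicate 2. HNRNPU gave 1.93 times the counts of HNRNPM in replicate 1 (1.72 to 2.17) and 1.16 times in replicate 2 (0.988 to 1.37), so the lead of HNRNPU over the next gene was within counting error in replicate 2. HNRNPH1 took 11.3% (10.2 to 12.5) and 14.1% (12.5 to 15.8), and HNRNPM took 14.6% (13.4 to 15.9) and 16.3% (14.6 to 18.1). Shares sum to a fixed total, so a lower share of HNRNPU raises the summed share of the rest by construction. HNRNPK took 9.35% in replicate 1 (8.35 to 10.5) and 9.08% in replicate 2 (7.77 to 10.5), a difference within counting error. The share of each of the other 8 was higher in replicate 2.

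**Figure D4:**
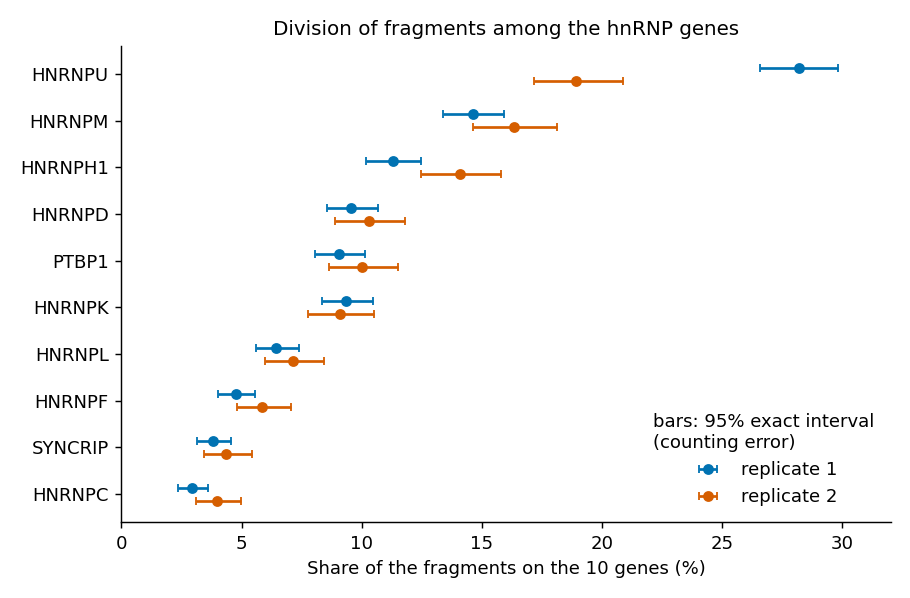
Share of the fragments on the 10 hnRNP genes taken by each (horizontal axis, percent) in replicate 1 and replicate 2, with 95% exact Clopper-Pearson intervals for counting error. HNRNPU goes from 28.2% in replicate 1 to 18.9% in replicate 2, and HNRNPK has 9.35% and 9.08%, with bars that overlap.

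Some of the deposited counts were not whole, and why was not tested. Of the 10 genes, 4 had a count that was not whole in at least 1 library (HNRNPU in both, HNRNPK in replicate 1, SYNCRIP and HNRNPL in replicate 2), each ending in 0.5. Of the 2241 IDs, 485 had such a count, or 21.6%. The ID listed just before HNRNPU, ENSG00000188206.5, also ended in 0.5 in both libraries, at 16.5 and 8.5 counts. Pseudogenes are gene copies in the genome that can match the same short fragment. The RefSeq table (GRCh38.p14) lists 27 pseudogenes named for these genes: 9 for HNRNPC, 5 for HNRNPK, 3 for HNRNPH1 and 1 or 2 for each of the other 7. Whether fragments matching such a copy were kept, divided or dropped is not given in the sources used here. HNRNPC, with the fewest counts and whole values in both libraries, and HNRNPK have the most such copies, and the part of these copies in their counts was not tested.

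The 5′ ends of the transcripts were read from RefSeq (GRCh38.p14), because mRNAs that begin with a C followed by pyrimidines (5′ TOP mRNAs, among them those of ribosomal proteins) form a class whose translation is controlled together by mTOR signalling. The table gave 17 annotated starts for the 10 genes, from 1 each for 5 of them to 4 for HNRNPH1. None of the 17 had a C at the first base followed by 4 bases that were each C or T, read on the sense strand, against 4.07% of 35116 starts of all genes. This is a description of letters in the annotation. Starts in HEK293 cells may differ from the annotated ones. In the 250 bases upstream of the start the median GC content was 66.0% for the 17 starts, from 48.4% for HNRNPC to 82.4% for PTBP1, beside 58.0% over all starts. The sequences that follow show the first 5 transcribed bases in capitals after 25 upstream bases, for HNRNPU and HNRNPM, which gave the most fragments, and HNRNPC, which gave the fewest. They lie at chr1:244864539-244864568 on the minus strand, chr19:8444950-8444979 on the plus strand and chr14:21269438-21269467 on the minus strand.
HNRNPU: tacgtgcgcggcgccgctcctgcgaGAGGA
HNRNPM: gcagcgcggtgcagcccgttcgctcACACA
HNRNPC: gggactaggccttcgcctcggcggcAGAGG
HNRNPU and HNRNPC begin with G and A followed by purines, and HNRNPM begins with A.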

How the data were processed

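Ribosome-protected fragments of 27 to 29 nt were counted per Ensembl gene ID by the authors, 1 column per library, per the series' design text and the labels. Some deposited values were not whole, so they were treated as estimated counts. Per the submitters' processing notes the build was hg19. The sources used here give no aligner, counter, annotation, strand setting or rule for divided fragments. Per the labels' protocols, ribosomal RNA was not depleted, monosomes came from size-exclusion chromatography, and gel purification kept 20 to 38 nt.

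The members and lists were chosen with earlier results of these data known. CPM and shares used deposited values over all IDs. Ratios used values rounded to whole numbers, TMM factors computed in edgeR 4.0.16 under R 4.3.3 from IDs whose counts summed to 20 or more, and conditional exact binomial intervals at 95%. No p-value was computed, since 1 group gives no contrast. The ratio intervals and the 2-fold rule were tested on simulated counts that held counting error only. Scaling factors and shares were not part of that test. Alternatives were scaling by library size, by DESeq2 1.42.0 size factors, without the 2 highest IDs and without the count filter, other limits, and each replicate left out. All 10 members were named by rule. The reference table listed 0 of the IDs, so the fixed lists of other hnRNP genes, SR proteins and cell line markers, and lengths, were not used. All 10 symbols were found in it. Python 3.11.15, numpy 2.4.6, scipy 1.17.1 and pandas 2.3.3 were used.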

Additional observations from a re-analysis of the deposited data

How the results depend on the processing

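Of 40 log2 ratios of single genes under the 4 other scalings, 38 gave the same answer on whether the interval excluded 0. The other 2 were those of HNRNPK, whose interval excluded 0 only by library size (-0.33) and with TMM factors over all IDs above 0 counts (-0.30). The median log2 ratio ran from -0.14 by library size to -0.02 with DESeq2 size factors, and was -0.02 without HNRNPU, an alternative added once its values were known. Library size moved the median of the 2241 IDs from -0.07 to -0.18. The count of genes beyond the fold limit stayed 0 at 2-fold by library size and with DESeq2 size factors, and at 1.5-fold with TMM scaling. A 99% interval and a lower count minimum could not raise it. The 1.5-fold limit was counted with TMM scaling only. The interval of HNRNPU lay wholly beyond 1.5-fold by library size (-1.05 to -0.67). With TMM factors over all IDs above 0 counts it did too (-1.01 to -0.64). The summed share was 0.396% with the 2 highest IDs left out and 0.240% without HNRNPU, both by construction, and from 0.285% to 0.348% with 1 replicate left out. Leaving out the 2 highest IDs rescales the CPM of every gene in a library by the same factor; HNRNPU differs from the other 9 only in that its SD is wider than the move. Footprints per kilobase of coding sequence, planned as a further measure, were not run because coding lengths were not used here. No paired analysis was possible because the libraries form 1 group.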
